A study of Mus musculus with 8 samples.

Results

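The genes that make glutathione and couple it, or glucuronic acid, to other molecules were followed through 8 libraries of mouse prostate RNA. They comprised the cytosolic glutathione transferases (GSTs, named *Gsta*, *Gstk*, *Gstm*, *Gsto*, *Gstp* and *Gstt*), the microsomal glutathione transferases (*Mgst*), the UDP-glucuronosyltransferases (UGTs) and the 5 genes *Gclc*, *Gclm*, *Gss*, *Gsr* and *Nqo1*. The rule took members by gene symbol and used no measured value, although it was chosen with earlier results of these data known. This gave 48 of the 27036 genes in the table, namely 23 GSTs, 20 UGTs and the 5 named genes. Of these, 26 passed the filter for testing (more than 1 CPM, here a count scaled to the library's unadjusted total, in at least 2 libraries), together with 14034 genes in all. The CPM values given below are scaled to TMM library sizes instead, so a gene near 1 CPM can stand on the other side of that limit.

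Glutathione is a tripeptide built by glutamate-cysteine ligase and glutathione synthetase, and it is kept in its reduced form by glutathione reductase. GSTs join it to reactive and fat-soluble compounds, and UGTs join such compounds to glucuronic acid, so that both kinds of product can be exported from the cell. Many of these genes are targets of the transcription factor NRF2, which KEAP1 holds in check. In the human prostate, members of the UGT2B family inactivate androgens, and loss of GSTP1 by promoter methylation is a well-known feature of carcinoma.

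The study asked how androgen signalling takes part in the start and progression of prostate tumors. PIN (prostatic intraepithelial neoplasia, the preinvasive lesion, 3 libraries) and PCa (prostate cancer, 2 libraries) came from R26mTmG/hAR:Osr1Cre/+ mice, in which Cre driven by Osr1 activates the human transgene of that genotype and the mTmG reporter. The WT libraries (3) came from control mice, given in the study's methods as R26mTmG/+:Osr1Cre/+, so that reporter and Cre were shared and the transgene was not. All mice were on a mixed C57BL/6 and 129S1/SvImJ background, the ages behind these bulk libraries are not given in the sources used here. The libraries of a group are numbered as separate samples, and since nothing states that each bulk library came from a different animal, p-values measure only the spread between these samples.

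Total counts were 21751803 to 29730420 in WT, 27421827 to 28517421 in PIN, and 23527628 and 24457124 in PCa. The 2 tumors were less alike (Spearman correlation 0.839 across genes, which are not independent replicates) than any pair of WT libraries (at least 0.923) or of PIN libraries (at least 0.964). Epithelial keratins were present in every library, with *Krt8* at 149.4 to 975.2 CPM, whereas the secretory marker *Tgm4* was 34900 to 59730 CPM in WT and PIN and 55.99 and 373.0 CPM in PCa. The 8 smooth muscle markers summed to 2134 to 6207 CPM in WT and PIN and to 63.3 and 40.5 CPM in PCa, with 7 of 8 called lower in PCa than in WT. WT 1 carried seminal vesicle transcripts (7 markers, 15880 CPM, against under 1 CPM in WT 2 and WT 3, 43.95 to 88.71 CPM in PIN, and 3840 and 882.7 CPM in PCa). The 7 hepatocyte markers summed to at most 0.890 CPM in 7 libraries and to 23.5 CPM in PCa 1. In bulk tissue, fewer cells of a type and less RNA per cell cannot be told apart. The library numbers in the labels fall into 3 series, of which 1 holds all PIN and PCa libraries and no WT library. If these are batches, no comparison with WT can separate batch from condition.

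Between PIN and WT no member was called (0 of 26 in edgeR's quasi-likelihood test, where a call needed more than a 2-fold difference in either direction and an adjusted p under 0.05), and over all genes tested the share called was 0%. DESeq2 called 0 members as well, although over all 14034 genes it called 35 higher and 4 lower. At an unadjusted p under 0.05 there were 3 members, *Gsta3*, *Gsta4* and *Gss*, against 3.51% of all genes. Between PCa and WT 3 members were called (11.5%, against 8.54% of all genes), with *Gsta3* and *Gsr* higher and *Gss* lower. Between PCa and PIN 2 members were called (7.69%, against 5.72% of all genes), and *Gsr* and *Gsta4* were both higher in PCa (2.55% of all genes were called higher and 3.17% lower). Members were thus called at shares near those of all genes. The median log2 fold change over the 26 members was 0.35 for PIN against WT, 0.43 for PCa against WT and 0.08 for PCa against PIN, beside -0.02, 0.01 and 0.07 over all genes. The medians leave out the 22 members below the filter and include *Ugt2b34*, *Ugt1a6b* and *Gstm6*, which no WT library helped to pass it. Their PIN against WT values were 2.94, 0.94 and 0.90, all above the member median, so nothing is read from the medians. Values given without 1 tumor rest on the other tumor alone, which is then assumed to vary like the WT and PIN libraries, so they show how far 1 library sets a value and do not test the condition.

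Separation of the groups was read library by library as well. Between PIN and WT, 8 of the 26 members did not overlap (12.9% of all genes), of which 5 were higher in PIN (*Gclm*, *Gsta3*, *Gstm6*, *Nqo1* and *Ugt2b34*, 6.48% of all genes) and 3 lower (*Gss*, *Gsta4* and *Mgst3*, 6.38%). Between PCa and WT 9 members did not overlap (37.3% of all genes). *Gsr*, *Gsta3*, *Gstm6*, *Gstm7* and *Mgst1* were higher in PCa (5 members, 17.7% of all genes), and *Gss*, *Gstm1*, *Gstm2* and *Gstt2* were lower (4 members, 19.6%). Between PCa and PIN 8 members did not overlap (44.3% of all genes), with *Gclc*, *Gsr* and *Gsta4* higher in PCa (21.1%) and *Gss*, *Gstm1*, *Gstm2*, *Nqo1* and *Ugt2b34* lower (23.2%). *Ugt2b34* and *Ugt1a6b* passed the filter through PIN alone and *Gstm6* through PIN and PCa alone. The filter thus in part fixed their places among the tested members and in these counts, and nothing is read from them.

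**Figure D1:**
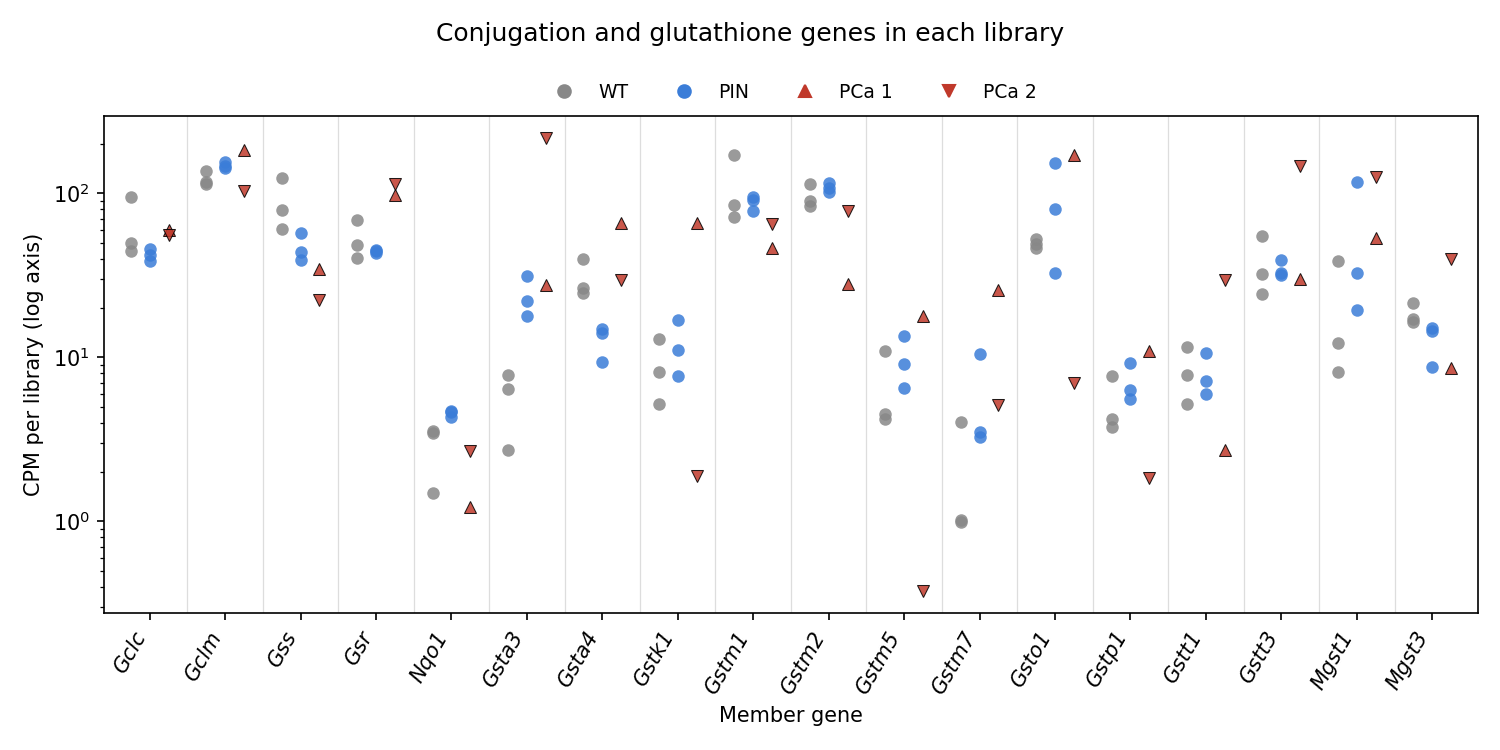
CPM of 18 members in each library on a log axis, with grey circles for WT, blue circles for PIN and red triangles for the 2 tumors (pointing up for PCa 1 and down for PCa 2). Both tumors lay above every other library for *Gsr* and below every other library for *Gss*, whereas for *Gstk1*, *Gstm5* and *Gsto1* they lay at opposite ends.

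Among the enzymes that make and recycle glutathione, the reductase was higher in both tumors and the synthetase lower. *Gsr* encodes glutathione reductase, which uses NADPH to return oxidized glutathione to its reduced form. *Gsr* was 40.5, 68.6 and 48.2 CPM in WT, 43.5, 44.5 and 45.4 CPM in PIN, and 98.2 and 114.5 CPM in PCa. Both tumors lay above all 6 other libraries, and the 3 PIN libraries lay within a narrow range. The log2 fold change was 1.02 ± 0.24 (SE) against WT (adjusted p = 0.0428) and 1.26 ± 0.24 against PIN (adjusted p = 0.0319; quasi-likelihood F-test of edgeR, Benjamini-Hochberg adjusted). The call against WT was close to both thresholds and was lost under 10 of 17 alternatives, with an adjusted p of at most 0.191.

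*Gss* encodes glutathione synthetase, which adds glycine in the last step of synthesis. Its levels were 79.2, 124.9 and 60.3 CPM in WT, 39.5, 43.6 and 57.5 CPM in PIN, and 34.7 and 22.4 CPM in PCa. No PIN library reached the lowest WT library, and both tumors lay below every PIN library. The log2 fold change of *Gss* in PCa against WT was -1.63 ± 0.38 (SE, adjusted p = 0.0402, edgeR's quasi-likelihood test). The fitted difference of PIN from WT was -0.91 ± 0.32 (adjusted p = 1.00), and that of PCa from PIN was -0.71 ± 0.36 (adjusted p = 0.291). WT 2 held the highest *Gss* level, and without it the difference between PCa and WT was -1.29 (adjusted p = 0.0566). Part of its exons overlap *Acss2* and other genes on the opposite strand, and whether reads were assigned by strand is not given in the sources used here.

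The ligase that carries out the first step showed no call. *Gclc*, its catalytic subunit, was 44.6, 94.7 and 49.7 CPM in WT, 38.6, 45.5 and 42.4 CPM in PIN, and 59.95 and 55.85 CPM in PCa. Both tumors lay inside the WT range and above every PIN library. *Gclm*, its modifier subunit, was 114.2, 137.4 and 118.1 CPM in WT, 155.7, 142.4 and 147.5 CPM in PIN, and 185.1 and 103.1 CPM in PCa. All PIN libraries were above WT, and the tumors fell on either side of WT. The log2 fold changes of PCa against WT were -0.12 ± 0.33 (SE) for *Gclc* and 0.23 ± 0.26 for *Gclm* (adjusted p = 0.844 and 0.623, edgeR).

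WT 2, which had the highest *Gclc*, *Gss* and *Gsr* levels of the WT group, also stood apart in other genes of the same network. *Slc7a11*, the cystine importer that supplies cysteine for glutathione, was 484.7 CPM in WT 2 and 7.41 to 30.3 CPM in the other 7 libraries. *Srxn1*, sulfiredoxin, was 244.4 CPM in WT 2 and 11.9 to 39.0 CPM elsewhere. The part of this library's state in the WT comparisons was read from fits without it, in which the *Gsr* log2 fold change was 1.26 (adjusted p = 0.0182) and that of *Gsta3* was 4.09 (adjusted p = 0.0540).

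*Nqo1*, a quinone reductase and a commonly used NRF2 target, was low. It stood at 3.56, 1.495 and 3.44 CPM in WT, 4.32, 4.72 and 4.63 CPM in PIN, and 1.22 and 2.67 CPM in PCa. All PIN libraries were above all WT libraries and above both tumors. The log2 fold changes were 0.69 ± 0.48 (SE) for PIN against WT and -1.22 ± 0.56 for PCa against PIN, and neither was called (adjusted p = 1.00 and 0.243, edgeR). The latter was -0.75 without PCa 1 and -1.87 without PCa 2.

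**Figure D2:**
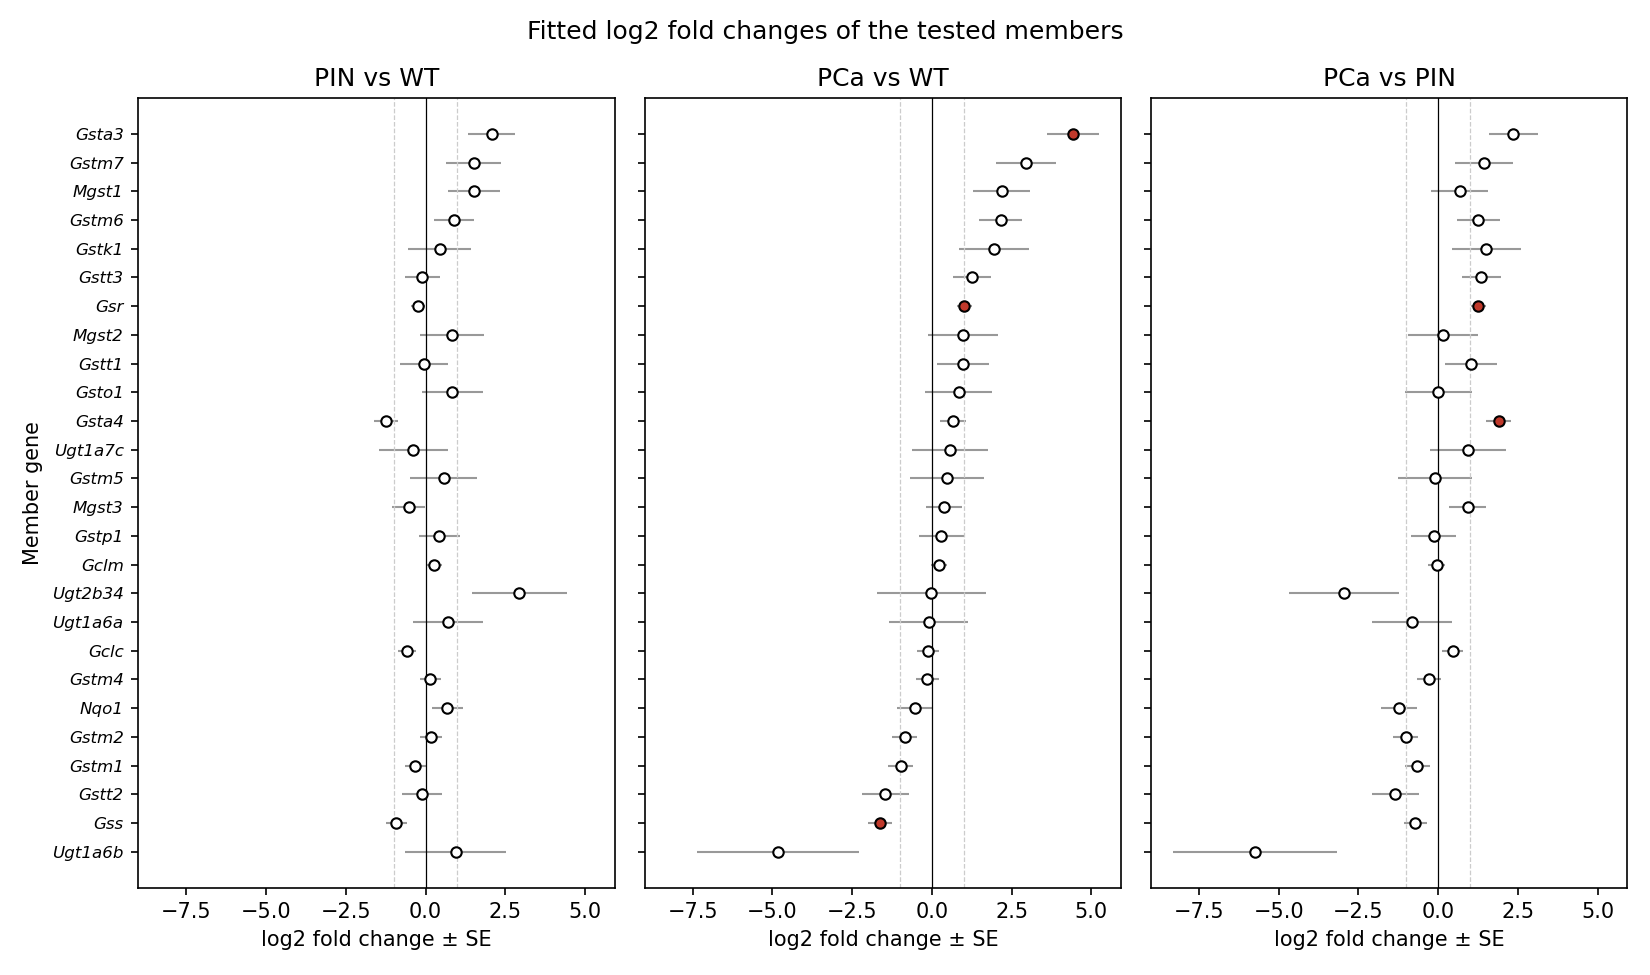
Fitted log2 fold changes with their SE (bars) for the 26 tested members in each comparison, ordered by the PCa against WT value, with filled circles for called members and dashed lines at a log2 fold change of 1 in each direction. No circle is filled for PIN against WT, 3 are filled for PCa against WT and 2 for PCa against PIN.

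Of the alpha class, *Gsta3* showed the largest fold change of any called member. It encodes an alpha GST that detoxifies the aflatoxin epoxide in mouse liver, and it lies at chr1:21230670-21255442 of mm9, on the plus strand. *Gsta3* was 6.43, 2.72 and 7.87 CPM in WT, 31.4, 17.8 and 22.2 CPM in PIN, and 27.6 and 216.3 CPM in PCa. Every PIN and PCa library was above every WT library, PCa 1 lay within the PIN range, and PCa 2 was 7.84 times as high as PCa 1 (95% interval 7.30 to 8.43). Intervals of such ratios are exact ones that cover counting error only, not the spread between samples. The log2 fold change of PCa against WT was 4.42 ± 0.83 (SE, adjusted p = 0.0229, edgeR's quasi-likelihood test), and without PCa 2 it was 2.29. For PIN against WT it was 2.07 ± 0.73 (adjusted p = 1.00), and for PCa against PIN it was 2.36 ± 0.77 (adjusted p = 0.122). The latter value was 0.23 without PCa 2 and 3.20 without PCa 1, and DESeq2 called it (adjusted p = 0.0190).

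The bases just upstream of *Gsta3* are printed because the gene had the largest fold change of the called members and because they hold the core of the antioxidant response element, the site that NRF2 binds. The core was searched as TGACNNNGC on both strands in windows from 250 bases before to 50 bases after each start site (RefSeq, GRCm38.p6). It was found in 12.4% of 32851 windows, which belonged to 13.99% of 27025 genes. Of the 48 members, 42 had a window and 5 of these (11.9%) held a match, namely *Gsta3*, *Gstm5*, *Gstm7*, *Gclm* and *Mgst1*. That share is near the share of all genes, and a match describes letters, not a bound site. The 6 members without a window were *Gclc*, *Gsr*, *Gsta4*, *Gstt2*, *Ugt1a6b* and *Ugt3a2*, so the called *Gsr* and *Gsta4* were not searched. The match in *Gsta3* runs from -121 to -113 relative to the start site and is in capitals in the stretch chr1:21240335-21240584, plus strand:
Gsta3: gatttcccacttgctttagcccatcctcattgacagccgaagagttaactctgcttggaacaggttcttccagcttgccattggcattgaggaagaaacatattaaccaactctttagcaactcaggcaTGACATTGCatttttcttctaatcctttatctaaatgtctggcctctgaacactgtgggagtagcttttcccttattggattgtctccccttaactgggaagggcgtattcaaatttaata

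The matches in the other 4 members are shown with their surroundings, each 5′ to 3′ along the gene's own strand, since these genes differed in how they stood in the tumors. In *Gstm5* (chr3:107895786-107895845, plus strand) and *Gstm7* (chr3:107931710-107931769, minus strand) the capitals read along the gene, and in *Gclm* (chr3:122245397-122245456, plus strand) and *Mgst1* (chr6:138140445-138140504, plus strand) they hold the match of the opposite strand. All coordinates of printed bases are those of GRCm38.p6, and all gene positions are those of mm9.
Gstm5: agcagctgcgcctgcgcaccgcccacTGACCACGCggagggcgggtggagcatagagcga
Gstm7: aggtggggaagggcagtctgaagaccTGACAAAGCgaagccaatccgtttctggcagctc
Gclm: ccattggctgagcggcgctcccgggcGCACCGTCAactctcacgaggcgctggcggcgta
Mgst1: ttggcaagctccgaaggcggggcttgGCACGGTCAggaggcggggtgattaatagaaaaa

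The bases upstream of *Gss* (chr2:155592811-155593060, minus strand) are shown for comparison, as those of the called member that was lower in PCa, and hold no match in this window:
Gss: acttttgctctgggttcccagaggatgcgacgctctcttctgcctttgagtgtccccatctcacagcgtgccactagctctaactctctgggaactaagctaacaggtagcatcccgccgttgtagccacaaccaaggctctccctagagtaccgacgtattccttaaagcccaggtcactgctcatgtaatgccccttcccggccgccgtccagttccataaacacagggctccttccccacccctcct

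*Gsta4* encodes the alpha GST that conjugates 4-hydroxynonenal, a product of lipid peroxidation, and lies at chr9:78039773-78057155 of mm9. It was 39.8, 26.6 and 24.7 CPM in WT, 14.2, 15.0 and 9.42 CPM in PIN, and 66.3 and 29.5 CPM in PCa. Every PIN library was below every WT library and below both tumors, and PCa 2 lay within the WT range. *Gsta4* rose by 1.896 ± 0.40 (SE) on the log2 scale in PCa against PIN (adjusted p = 0.0387, edgeR's quasi-likelihood test), and without PCa 1 the value was 1.21. The call was lost without PCa 1 and under 9 of 17 alternatives in all. Its difference of PIN from WT was -1.24 ± 0.37, which had the lowest unadjusted p of the members in that comparison (0.0103) and an adjusted p of 1.00. *Gsta1* and *Gsta2*, which share 89.7% and 48.3% of their 50-base words with other genes, were at 0.725 CPM or less in every library and were not tested.

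The mu class, whose 7 genes lie side by side on chromosome 3 between 107698739 and 107847812 (mm9), was the GST class with the largest share in WT. *Gstm1* was 172.0, 72.2 and 84.9 CPM in WT, 77.8, 95.6 and 90.9 CPM in PIN, and 46.3 and 65.1 CPM in PCa. *Gstm2* was 114.1, 90.0 and 83.8 CPM in WT, 101.4, 107.8 and 115.3 CPM in PIN, and 28.0 and 78.2 CPM in PCa. Both tumors lay below all other libraries for either gene, and neither was called (log2 fold changes of -0.98 ± 0.39 and -0.85 ± 0.40 (SE) against WT, adjusted p = 0.156 and 0.216, edgeR). The value of *Gstm1* was -0.49 without WT 1, and that of *Gstm2* was -0.28 without PCa 1 and -1.76 without PCa 2.

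Their neighbours did not share this pattern. *Gstm7* was 4.05, 0.997 and 1.03 CPM in WT, 10.4, 3.27 and 3.50 CPM in PIN, and 25.8 and 5.14 CPM in PCa, with both tumors above WT. *Gstm6* was 0.498 to 0.878 CPM in WT, 0.904 to 1.62 CPM in PIN, and 5.18 and 1.30 CPM in PCa. Their log2 fold changes in PCa against WT were 2.94 ± 0.94 (SE) and 2.16 ± 0.68, and neither was called (adjusted p = 0.0933 and 0.0910, edgeR). Without PCa 1 they were 1.36 and 0.85, and both genes were called by DESeq2 (adjusted p = 0.0106 and 0.0275) and with library totals in place of TMM. Since *Gstm6* passed the filter through PIN and PCa alone, nothing is read from its calls. *Gstm5* was 10.9, 4.53 and 4.21 CPM in WT, 13.5, 6.54 and 9.12 CPM in PIN, and 17.9 and 0.377 CPM in PCa, so that the tumors were 47.4-fold apart (95% interval 26.3 to 95.4). Of its exon bases, 13.9% overlap a gene on the opposite strand. *Gstm4* was 5.21 to 10.1 CPM throughout, and *Gstm3* had 2 counts in all 8 libraries together.

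For *Gsto1*, *Gstk1* and *Gstp1*, PCa 1 was the highest of the 8 libraries and PCa 2 the lowest. *Gsto1*, whose product reduces dehydroascorbate, was 46.7, 49.4 and 52.9 CPM in WT, 152.3, 32.9 and 80.9 CPM in PIN, and 171.3 and 6.96 CPM in PCa. WT libraries were tightly grouped, PIN libraries spanned them on both sides, and the tumors lay above and below every other library. *Gsto2*, next to it on chromosome 19, was 0.354 to 0.792 CPM and was not tested. *Gstk1*, the kappa GST of mitochondria and peroxisomes, was 12.95, 5.17 and 8.20 CPM in WT, 16.9, 7.68 and 11.2 CPM in PIN, and 65.7 and 1.89 CPM in PCa. *Gstp1* was 7.71, 3.76 and 4.21 CPM in WT, 6.34, 5.61 and 9.23 CPM in PIN, and 10.97 and 1.85 CPM in PCa. It shares 67.5% of its 50-base words with *Gstp2*, which was at 0.247 CPM or less, so its counts are uncertain. None of the 3 was called in PCa against WT (log2 fold changes of 0.84 ± 1.05, 1.95 ± 1.09 and 0.30 ± 0.70 (SE), adjusted p = 0.647, 0.291 and 0.821, edgeR), and all 3 changed sign without PCa 1 (-2.82, -2.20 and -1.48).

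The theta genes, a cluster on chromosome 10, stood the other way. *Gstt1* was 11.6, 5.21 and 7.83 CPM in WT, 6.01, 10.6 and 7.16 CPM in PIN, and 2.74 and 29.5 CPM in PCa. *Gstt3* was 54.8, 24.3 and 32.2 CPM in WT, 32.6, 39.5 and 32.0 CPM in PIN, and 29.9 and 147.1 CPM in PCa. *Gstt2* was 17.7, 8.38 and 10.5 CPM in WT, 7.02, 13.7 and 13.1 CPM in PIN, and 1.32 and 7.54 CPM in PCa. All 3 were higher in PCa 2 than in PCa 1, by 10.8-fold (95% interval 8.63 to 13.7), 4.92-fold (4.58 to 5.28) and 5.72-fold (4.08 to 8.19), although both tumors were below every WT library for *Gstt2*. None was called in PCa against WT (log2 fold changes of 0.97, 1.26 and -1.46 for *Gstt1*, *Gstt3* and *Gstt2*, adjusted p = 0.489, 0.224 and 0.244, edgeR). Those of *Gstt1* and *Gstt3* were 1.85 and 2.00 without PCa 1 and -1.57 and -0.29 without PCa 2, and that of *Gstt2* was -0.68 without PCa 1 and -3.19 without PCa 2. *Gstt4* was at 0.110 CPM or less. Of the 50-base words of *Gstt3*, 18.3% occur in other genes.

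The microsomal enzymes sit in membranes and are not related in sequence to the cytosolic GSTs. *Mgst1* was 38.7, 8.20 and 12.2 CPM in WT, 117.0, 19.5 and 32.9 CPM in PIN, and 53.3 and 126.0 CPM in PCa. Both tumors lay above WT, and the PIN libraries overlapped both groups. The log2 fold change of PCa against WT was 2.19 ± 0.90 (SE, adjusted p = 0.164, edgeR), and it was 1.45 without PCa 2 and 3.14 without WT 1. *Mgst3* was 21.5, 16.5 and 17.2 CPM in WT, 14.5, 8.71 and 15.0 CPM in PIN, and 8.62 and 39.6 CPM in PCa. All PIN libraries were below WT, and the tumors were 4.59-fold apart (95% interval 4.02 to 5.26), with PCa 2 the higher. *Mgst2*, a leukotriene C4 synthase, was 0.220 to 3.86 CPM in all libraries.

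With 0.5 CPM added to each value, so that low counts weigh less, the tumors were at least 4-fold apart in 12 of the 26 tested members (46.2%), compared with 14.4% of all genes. PCa 1 was the higher in 7 and PCa 2 in 5, and over all genes the shares were 10.4% and 3.96%. In WT the highest library was at least 4-fold above the lowest for 1 of 26 members (7.02% of all genes), and in PIN for 3 of 26 (2.91% of all genes). On plain CPM, a scale tried after the data were seen, and with genes at 0 counts in the lower library not taken as apart, the tumors differed that far in 13 of 26 members (against 18.4% of all genes), with *Mgst2* in addition, and the WT and PIN counts were 3 and 4 (12.5% and 5.09% of all genes). In 9 members (34.6%, against 12.2% of all genes) 1 tumor was above and the other below every WT library. PCa 1 was above for *Gclm*, *Gstk1*, *Gstm5*, *Gsto1*, *Gstp1*, *Ugt1a6a* and *Ugt1a7c*, and PCa 2 for *Gstt1* and *Mgst3*. With 1 library for each tumor, this contrast has no replicate and no test, and these members, several of them neighbours in a cluster, are not independent of one another. Marker sums moved along with it, since the 5 basal markers were 610.1 CPM in PCa 1 and 28.0 CPM in PCa 2 (169.1 to 388.3 CPM in WT and PIN), the 8 leukocyte markers 169.6 and 22.9 CPM (36.5 to 106.7 CPM), and the 7 seminal vesicle markers 3840 and 882.7 CPM. The 6 adipocyte markers summed to 32.3 CPM in PCa 1 and 2.88 CPM in PCa 2, the 7 hepatocyte markers to 23.5 and 0.514 CPM, and the 5 skeletal muscle markers to 13.1 and 3.02 CPM. The 7 fibroblast markers summed to 766.5 and 282.8 CPM, and the 11 luminal epithelium markers to 4997 and 2896 CPM. The 5 urothelium markers stood the other way, at 66.6 and 140.8 CPM, as did the 6 endothelium markers, at 123.2 and 161.0 CPM. The 4 nerve and Schwann cell markers, at 4.18 and 4.46 CPM, hardly differed. Of the markers in these lists, *Myh4* of skeletal muscle and *Sox10* of nerve and Schwann cells were at 0 in both tumors. The part of these lists in the difference was not tested.

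**Figure D3:**
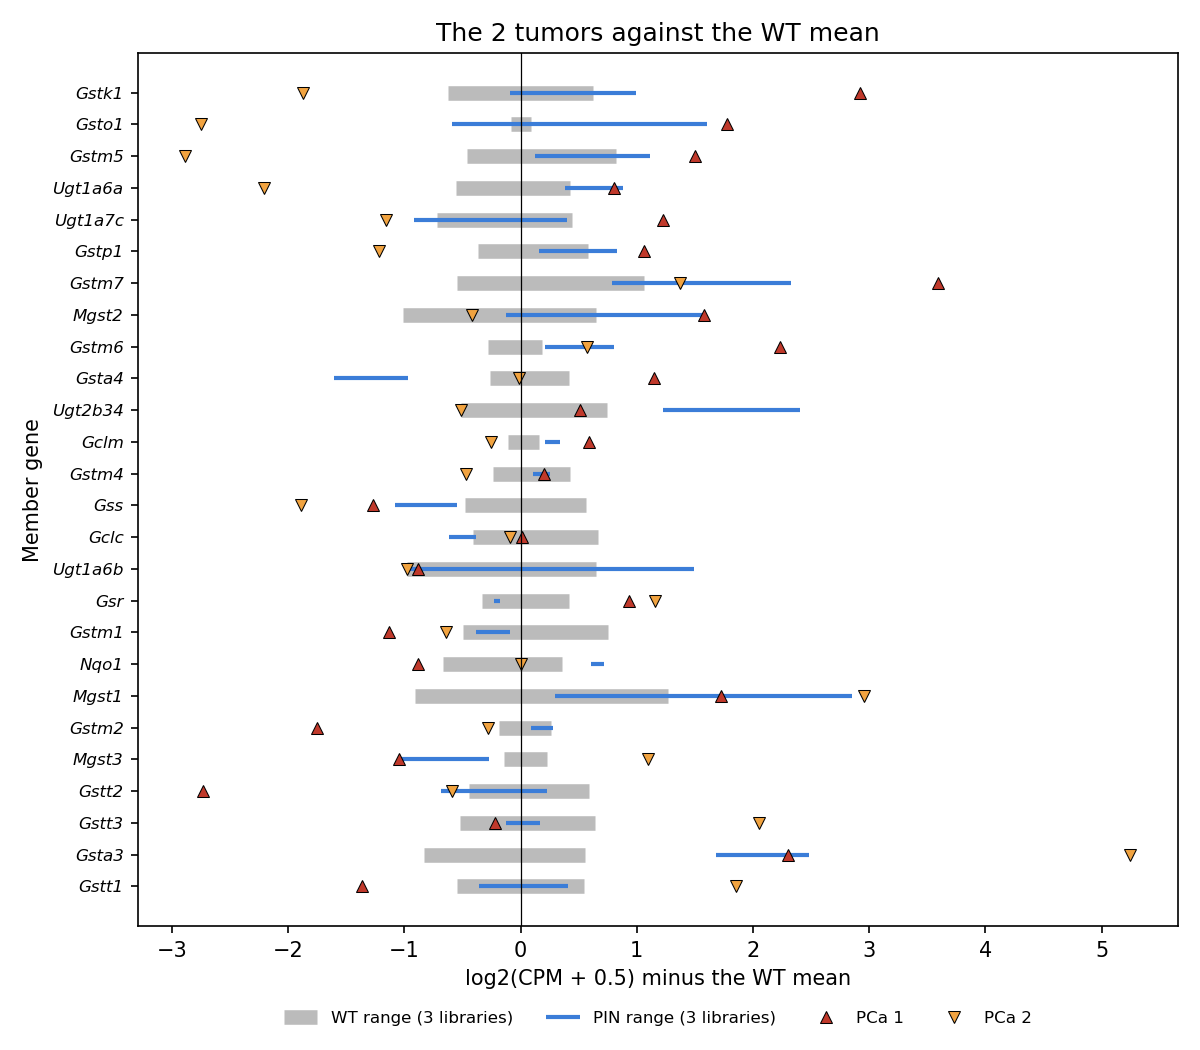
Difference of log2(CPM + 0.5) from the WT mean for the 26 tested members, with grey bars for the range of the 3 WT libraries, blue lines for that of the 3 PIN libraries, and triangles for PCa 1 (red, pointing up) and PCa 2 (orange, pointing down). Members are ordered by PCa 1 minus PCa 2, from *Gstk1* at the top, where PCa 1 is higher, to *Gstt1* at the bottom, where PCa 2 is higher.

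Levels between genes were compared per length, as TPM, in which counts are divided by exon length and scaled to the same total in every library. The mu class took up 49.7% to 54.2% of the summed GST TPM in WT and 37.1% to 56.5% in PIN, but 21.9% in PCa 1 and 21.2% in PCa 2. Its summed level was 333.9 and 398.7 TPM in the tumors, within the WT range of 283.3 to 663.1 TPM, and all GSTs together summed to 1524 and 1883 TPM, against 544.9 to 1222 TPM in WT and 904.7 to 1289 TPM in PIN. Unlike the shares, both orders depended on the library totals. Divided by the TMM factors, a scaling added after the data were seen, the mu sums of the tumors were 251.2 and 333.1, below the 375.9 to 712.0 of WT and the 471.2 to 518.4 of PIN, and the GST sums were 1147 and 1573, where PCa 1 lay within the ranges of WT (723.0 to 1313) and PIN (877.5 to 1271). Among the GSTs of WT 1 and WT 3 the leading member was *Gstm1* (206.3 TPM in WT 3), and in WT 2 *Gstm2* (133.8 TPM) stood just above *Gstm1* (129.4 TPM). The leading member of PCa 1 was *Gsto1* (332.0 TPM), followed by *Gstk1* (269.4 TPM) and *Gsta4* (264.2 TPM). In PCa 2 it was *Gsta3* (616.1 TPM), followed by *Mgst1* (248.3 TPM) and *Gstt3* (222.1 TPM). The alpha class thus made up 22.5% in PCa 1 and 39.2% in PCa 2, against 12.1% to 13.98% in WT and 8.86% to 11.2% in PIN. The kappa and omega classes came to 17.7% and 21.8% in PCa 1 and to 0.427% and 0.791% in PCa 2, and the theta class to 3.54% and 17.1%. These shares are descriptions without a test. They do not depend on the total of each library, of which 1 transcript, *9530053A07Rik*, took 13.1% to 22.1% of counts in WT and PIN and 0.011% and 0.008% in PCa.

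**Figure D4:**
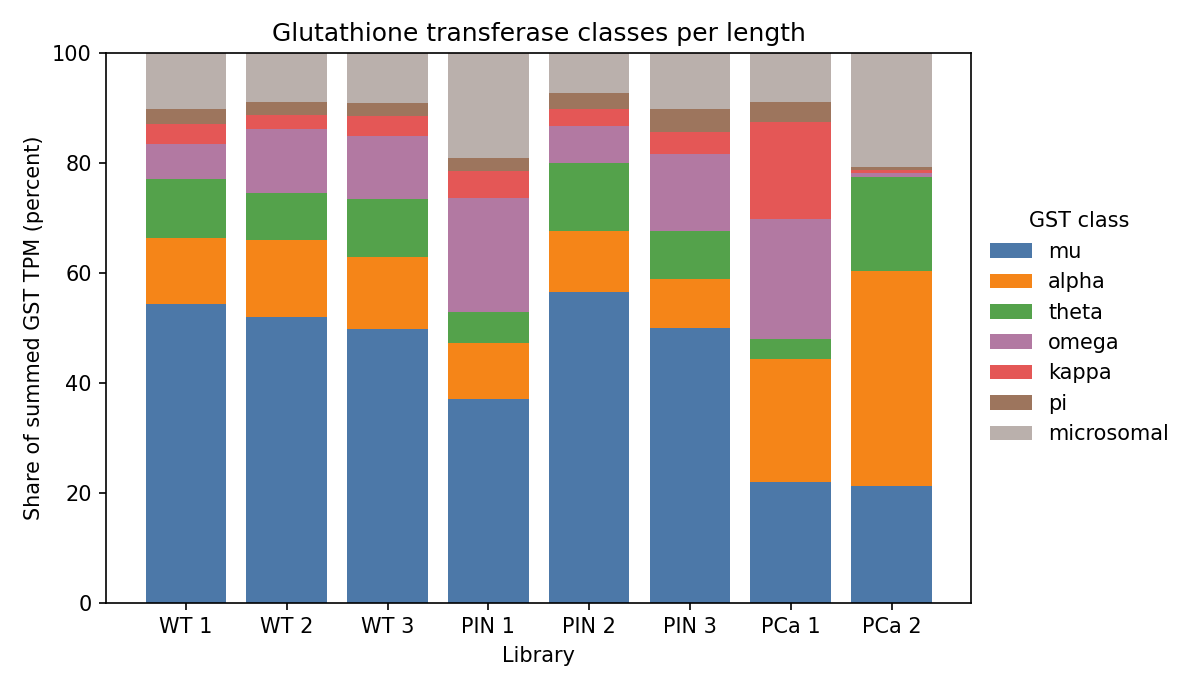
Share of each GST class in the summed GST TPM (percent) in each of the 8 libraries. The mu class is the largest in all WT and PIN libraries, and in PCa 1 and PCa 2 the other classes make up most of the bar in different proportions.

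Few counts were assigned to UGTs. All 20 members together had 130, 59 and 97 counts in WT, 253, 157 and 238 counts in PIN, and 256 and 5 counts in PCa. Summed, they reached 0.191 to 8.07 TPM, whereas the GSTs of the same libraries reached 544.9 to 1883 TPM. Only *Ugt1a6a*, *Ugt1a6b*, *Ugt1a7c* and *Ugt2b34* passed the filter, and the other 16 together had at most 33 counts in a library. *Ugt2a3*, the leading *Ugt2a* gene, had 3 counts in PCa 1 and 0 in every other library. *Ugt1a9*, *Ugt1a10*, *Ugt2b5*, *Ugt2b37*, *Ugt2b38*, *Ugt3a1* and *Ugt3a2* had 0 counts in all 8 libraries, where 3 counts, the limit that a count of 0 allows, correspond to 0.0965 to 0.148 CPM. Where exons or words are shared with other genes, as among the *Ugt1a* genes and for *Ugt2b5*, *Ugt2b37* and *Ugt2b38*, reads may have been left unassigned in counting, so these counts and sums may be too low and the limit holds for assigned counts only. *Ugt8a*, which makes galactosylceramide in myelinating cells, was 0.900 CPM in PIN 1 and 0.226 CPM or less elsewhere.

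*Ugt1a6a*, of a subfamily that conjugates small phenols, was 2.82, 1.18 and 2.20 CPM in WT, 3.38, 2.72 and 4.03 CPM in PIN, and 3.80 CPM in PCa 1, and had 1 count in PCa 2 (0.0343 CPM). *Ugt1a7c* had 88 counts in PCa 1 and 4 in PCa 2 (2.83 and 0.137 CPM), with 0.366 to 1.43 CPM in WT and 0.252 to 1.38 CPM in PIN. *Ugt1a6b* was 1.04 and 0.732 CPM in WT 1 and WT 3, 1.15 and 2.26 CPM in PIN 1 and PIN 3, and had 0 counts in WT 2, PIN 2 and PCa 2 and 1 count in PCa 1. The *Ugt1a* genes share their last exons, and 85.4%, 70.2% and 91.0% of the 50-base words of *Ugt1a6a*, *Ugt1a7c* and *Ugt1a6b* occur in other genes, so the split between them is uncertain. *Ugt2b34*, the tested member of the family known for steroid conjugation, was 0.692, 0 and 0.110 CPM in WT, 3.28, 1.17 and 1.66 CPM in PIN, and 0.515 and 0 CPM in PCa. All PIN libraries were above all others. It was not called in any comparison (log2 fold change of PIN against WT 2.94 ± 1.48 (SE), adjusted p = 1.00, edgeR) and it exceeded 1 CPM in PIN alone. The PIN against WT value was 5.02 without WT 1, 2.36 without WT 2 and 3.91 with a replicate block.

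Beyond the members, 7 lists of related genes, on glutathione, NRF2, other conjugation, androgens and xenobiotics, were drawn up with earlier results known. Of their 127 tested genes, 18 were called in PCa against WT (14.2%, against 8.54% of all genes) and 0 in PIN against WT (0% of all genes, with edgeR). Since the lists were chosen with results in view, nothing is read from that share. Of 27 tested genes of glutathione turnover and use, 1 rose and 2 fell in PCa (11.1% called), where 4.35% of all genes rose and 4.18% fell. *Glrx*, glutaredoxin, rose from 11.4, 11.4 and 11.9 CPM in WT to 30.9 and 76.2 CPM in PCa (log2 fold change 2.21, adjusted p = 0.0135, edgeR), with 16.1 to 17.7 CPM in PIN, and without PCa 2 its value was 1.43. The 2 that fell were *Gpx8* and *Cth*, the cystathionine lyase that yields cysteine (log2 fold changes of -1.59 and -1.22, adjusted p = 0.0319 and 0.0491). The call of *Cth* was lost under 14 of 17 alternatives, among them each fit with a library left out, and that of *Gpx8* under 9. *Gpx2* was 73.1 CPM in PCa 1 and at most 1.26 CPM in the other 7 libraries, and it was not called.

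Of 30 tested NRF2 regulators and further targets, 1 rose and 2 fell in PCa against WT (3 of 30 called, against 8.54% of all genes). *Txnrd1*, thioredoxin reductase, was 59.3 to 92.4 CPM in WT and 129.2 and 824.2 CPM in PCa (log2 fold change 2.68, adjusted p = 0.0442, edgeR), and without PCa 2 its value was 0.82 and it was not called. *Prdx6*, a peroxiredoxin that uses glutathione as its reductant, was 7654 to 11480 CPM in WT, 6949 to 9025 CPM in PIN, and 524.1 and 852.0 CPM in PCa (log2 fold change against WT -3.74, adjusted p = 0.00971). *Osgin1*, a stress-induced growth inhibitor, had a log2 fold change of -1.63 (adjusted p = 0.0272), and its call was lost under 6 of 17 alternatives. *Nfe2l2*, which encodes NRF2, was 44.8 to 94.3 CPM in WT and 75.5 and 105.2 CPM in PCa, and *Keap1* was 57.8 to 75.2 CPM in WT and 32.8 and 49.7 CPM in PCa. Neither was called (adjusted p = 0.362 and 0.106).

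Of 14 tested genes that supply UDP-glucuronate or export conjugates, 1 rose in PCa against WT and none fell (7.14% called, against 8.54% of all genes). *Slc35d1*, which carries UDP-glucuronate into the endoplasmic reticulum, was 3.13 to 3.96 CPM in WT and 8.59 and 19.2 CPM in PCa (log2 fold change 2.00, adjusted p = 0.0271, edgeR). Without PCa 2 its value was 1.32, and its call was lost under 9 of 17 alternatives. *Ugdh*, the dehydrogenase that makes UDP-glucuronate, was 64.4 CPM in WT 2, 21.9 and 24.5 CPM in WT 3 and WT 1, and 21.5 and 12.3 CPM in PCa, and was not called. Of 10 tested sulfotransferases and other conjugating enzymes, 3 rose and none fell (3 of 10, where 4.35% of all genes rose). *Papss1*, which makes the sulfate donor, was 72.2 to 95.7 CPM in WT and 186.3 and 176.5 CPM in PCa. *Sult1a1* was 2.27 to 4.99 CPM in WT and 10.1 and 72.0 CPM in PCa. *Sult2b1* was at most 0.148 CPM in WT and 12.4 and 0.994 CPM in PCa. It passed the filter through the tumors alone, so the filter in part fixed its place among the 3, and nothing is read from it. The log2 fold changes of *Papss1*, *Sult1a1* and *Sult2b1* were 1.07, 3.59 and 6.43 (adjusted p = 0.0318, 0.0291 and 0.0297, edgeR). Without PCa 2 the value of *Sult1a1* was 1.58 and it was not called, and *Sult2b1* did not pass the filter without either tumor. The calls were lost under 7 of 17 alternatives for *Papss1*, 9 of 17 for *Sult1a1* and 7 of 15 for *Sult2b1*.

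Of 10 tested genes of androgen synthesis and inactivation, none rose and 1 fell (1 of 10, where 4.18% of all genes fell). This was *Hsd17b11*, from 100.2 to 104.2 CPM in WT to 22.1 and 45.1 CPM in PCa (log2 fold change -1.60, adjusted p = 0.0237, edgeR). Its value was -1.17 without PCa 1 and -2.19 without PCa 2, and its call was lost under 6 of 17 alternatives. Of 14 tested GST relatives outside the classes above, *Clic3* rose and *Clic5* fell (14.3% called, against 8.54% of all genes), both members of the chloride intracellular channel family with a GST-like fold (log2 fold changes of 5.48 and -4.07, adjusted p = 0.0276 and 0.0443). *Clic3*, at most 0.146 CPM in WT, passed the filter through PIN 1 and the tumors alone, and nothing is read from its rise. *Clic5* was at -6.80 without PCa 1, and the calls of *Clic3* and *Clic5* were lost under 6 and 9 of 17 alternatives. Among 22 tested xenobiotic receptors and enzymes that act before conjugation, 3 rose and 2 fell (22.7% called, against 8.54% of all genes). The retinal dehydrogenases *Aldh1a1* and *Aldh1a3* rose (log2 fold changes of 2.60 and 2.99, adjusted p = 0.0402 and 0.0129). *Tiparp*, a target of the aryl hydrocarbon receptor, also rose (2.04, adjusted p = 0.0227), and without PCa 2 its value was 1.32. *Aldh1a2* and *Fmo2* fell (log2 fold changes of -4.65 and -2.77, adjusted p = 0.0469 and 0.0235), with values of -6.30 and -3.47 without PCa 1. The calls of *Aldh1a2*, *Fmo2* and *Aldh1a1* were lost under 9, 6 and 8 of 17 alternatives. The smooth muscle markers given above were lower in PCa as well, and their part in these falls was not tested.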

How the data were processed

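RNA from 3 WT, 3 PIN and 2 PCa samples of mouse prostate was sequenced in paired ends after removal of ribosomal RNA. Per the labels and the methods, the authors trimmed reads with cutadapt 1.9.1, aligned them to mm9 with HISAT2 2.1.0 and counted them per gene with HTSeq 0.6.1, and the deposited values are raw counts. Another deposited column, of a different kind of value, gives each gene's exon length and was used for TPM. The counting mode and strand setting are not given in the sources used here.

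Counts were tested with edgeR 4.0.16 (quasi-likelihood F-test, TMM library sizes, genes above 1 CPM of the unscaled library total in at least 2 libraries, 8 libraries in 1 model with 3 groups), with Benjamini-Hochberg adjustment over 14034 genes within each comparison. Calls needed a log2 fold change beyond 1 in either direction together with an adjusted p under 0.05. Printed CPM values use TMM library sizes. Fits without a tumor take the spread from the other groups. SEs follow from each fold change and its F value. The comparisons share libraries. Scripts were tested on simulated data. Exact 95% intervals and the limit of 3 counts cover counting error. Depth limits members under about 1 CPM, and 2 tumors limit every PCa comparison.

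Members and gene lists were chosen with earlier results of these data known. Values are given for all called members, the leading member of each class and the 5 named glutathione genes. The other members are given by range or, for several UGTs below the filter, only within a sum. The members whose tumors lay apart, and genes named outside the lists' calls, were chosen after their values were seen. Of the UGT family, 1 gene is not reported here. Alternatives were DESeq2 1.42.0, limma 3.58.1, other scalings, filters and models, a replicate block and each library left out.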

Additional observations from a re-analysis of the deposited data

How the results depend on the processing

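The counts of called members depended on the model. In PIN against WT, 0 members were called under each of the 17 alternatives, and over all genes only DESeq2 made calls (35 higher and 4 lower). In PCa against WT the count of 3 became 5 with DESeq2, 0 with only the compared groups in the model and 1 with a replicate block, and in PCa against PIN the count of 2 became 1 with upper-quartile scaling, 1 with only the compared groups and 0 with the block. Calls over all genes moved under the same settings. In PCa against WT, 611 were higher and 587 lower in the main fit, and 1311 and 1176 with DESeq2. With only the compared groups these were 67 and 63 (of 13655 tested), and with the block 202 and 211. In PCa against PIN, 358 were higher in the main fit and 296 with upper-quartile scaling. With only the compared groups it was 157 and with the block 28, and fewer were lower under each as well. With each library left out in turn the member counts moved as well, and so did those over all genes. Without PIN 3, 7 genes were called higher and 71 lower in PCa against PIN, out of 13994. Nothing about the members is read from these moves. The fits without a tumor hold 1 PCa library, assumed to vary like the other groups. In PCa against WT they added *Gstm5*, *Gstt1*, *Gstt3* and *Ugt1a6a* without PCa 1, and *Gstk1*, *Gstm2*, *Gstm6*, *Gstm7* and *Gstt2* without PCa 2. In PCa against PIN they added *Gsta3*, *Gstk1*, *Gstm5*, *Gsto1*, *Gstt1*, *Gstt3*, *Mgst3* and *Ugt1a6a* without PCa 1, and *Gstk1*, *Gstm2* and *Gstt2* without PCa 2. The member called with the replicate block was *Gstm7*. Samples of the same number deviated together with a mean correlation of 0.099 (7 pairs, -0.056 to 0.284). For samples of different number it was -0.0504 (14 pairs, -0.284 to 0.164). Deviations were taken within groups, so the values of the 2 tumors mirror each other, and these ranges cannot decide on pairing. The numbers were not used as pairs in the main model, and calls lost with the block are not read as weaker effects.

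Of the called members, *Gsta3* was 3.88 to 4.86 against WT with all libraries in and 2.29 to 5.26 with each left out, and was not called under 6 of 17 alternatives. *Gss* was not called under 10 (-1.96 to -1.29 with a library left out) and *Gsta4* against PIN not under 9 (1.21 to 2.39), with *Gsr* not under 10 against WT (0.87 to 1.26) and 6 against PIN (1.16 to 1.38). The call of *Gsta3* was lost without WT 1, WT 2, WT 3 or PIN 3, that of *Gss* without any library other than PCa 1, that of *Gsr* against WT without any library other than WT 2 or PCa 1, that of *Gsr* against PIN without WT 3, PCa 2 or any PIN library, and that of *Gsta4* without any library other than WT 2 or PCa 2. With library totals in place of TMM the median of all genes was 0.56 for PCa against WT, 0.42 for PCa against PIN and 0.18 for PIN against WT, beside 0.01, 0.07 and -0.02 with TMM. Among the called genes of the lists, calls were lost under 1 (*Prdx6*, *Aldh1a3*) to 14 (*Cth*) of the alternatives.

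Of the tested members, those that changed sign in PCa against WT under some alternative were *Gclc* (0.47 with library totals and -0.31 to 0.30 with a library left out), *Gclm* (-0.25 to 0.60), *Gstk1* (-2.20 to 2.92), *Gsta4* (-0.0326 to 1.14), *Gstt3* (-0.29 to 2.00), *Gstt1* (-1.57 to 1.85), *Mgst2* (-0.91 to 1.80), *Mgst3* (-1.08 to 1.12), *Gstm4* (0.40 with library totals, -0.53 to 0.19), *Gstm5* (-0.63 with the replicate block, -1.08 with limma, -4.09 to 1.46), *Ugt1a7c* (-0.28 with limma, -2.81 to 1.51), *Gsto1* (-0.34 with the replicate block, -0.52 with limma, -2.82 to 1.80 with a library left out), *Gstp1* (-0.13 with limma, -1.48 to 1.09), *Ugt1a6a* (0.46 with library totals, -5.72 to 0.89) and *Ugt2b34* (0.0273 with upper-quartile scaling, 0.50 with library totals, -5.78 to 2.07). *Gsr* in PIN against WT ranged from -0.39 to 0.003. The lowest values of *Gclm*, *Gstk1*, *Gsta4*, *Gsto1*, *Gstp1*, *Gstm5*, *Mgst2* and *Ugt1a7c* came without PCa 1, those of *Gstt1*, *Gstt3* and *Mgst3* without PCa 2. On plain CPM the members with libraries at least 4-fold apart went from 1 to 3 in WT and from 3 to 4 in PIN, and to 5 in each with ratios against 0 counted as apart, through *Ugt1a6b* in both groups and *Ugt2b34* in WT. The cause was not tested.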
